A study of Homo sapiens with 3 samples.

Results

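The genes described here are 44 genes of autophagy and the lysosome, taken by symbol from a table of read counts for 58381 genes. They were chosen by function, with earlier results of these data known. They cover the ATG8 proteins and the enzymes that conjugate them, the ULK and PI3K complexes, the proteins that supply membrane, a cargo receptor, the TFEB family of transcription factors, lysosomal membrane proteins, lysosomal enzymes and the proton pump. All 44 symbols matched a row of the table. The mean over the 3 libraries was at least 100 counts for 41 of them, and GABARAP, ULK2 and TFEB fell short of that minimum.

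RNA was sequenced from T24, an established line of human bladder carcinoma cells, in 3 libraries with 1 library per condition. Ctrl was unirradiated, RT was the control line exposed to ionising radiation at 10 Gy, and RT + shHDAC6 was the irradiated line carrying a short hairpin RNA against HDAC6, a mostly cytosolic deacetylase. Per the labels, the cells received the hairpin or a control pLKO.1 vector by lentivirus and were selected with puromycin, whereas the study's text calls the irradiated control cells parental. The time between irradiation and RNA extraction is not given in the sources used here, and an unirradiated library with the hairpin was not analysed here. The comparison of RT with Ctrl therefore asks what differed after irradiation, and that of RT + shHDAC6 with RT what differed with the hairpin among irradiated cells. Both use the single RT library.

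The libraries held between 35424086 and 41811165 counts. HDAC6 had 3098 counts in Ctrl against 2383 in RT and 2170 with the hairpin, and after scaling RT + shHDAC6 stood at 87.2% of RT (log2 ratio -0.20, 95% counting interval -0.28 to -0.11). The target mRNA of the hairpin thus differed little between the irradiated libraries. The study itself reports lower HDAC6 mRNA by qPCR and lower HDAC6 protein by Western blot in its T24 cells with the hairpin. Epithelial markers were present in every library but did not hold one level. KRT18 had 7336 to 9048 counts and was called higher in RT than in Ctrl (log2 ratio 0.62), while KRT19 was called lower (-0.67). KRT7 had 3533 counts in Ctrl against 3854 in RT and 597 with the hairpin, a log2 ratio of -2.75 between the irradiated libraries. The other epithelial markers went the other way in that comparison, within the fold. They were KRT18 (0.05), CDH1 (0.23), KRT8 (0.35), KRT19 (0.39) and EPCAM (0.51). Of the urothelial differentiation genes, UPK1A, UPK1B, UPK2, UPK3A and KRT20 stayed at 18 counts or fewer, whereas GATA3 had 2320, 1423 and 709 counts and PPARG 1298, 650 and 352. GATA3 (-1.07) and PPARG (-0.95) were both called lower with the hairpin. Mitochondrial transcripts took 3.75% of counts in Ctrl against 6.09% in RT and 5.51% with the hairpin, and the part of these differences in the results was not tested.

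Autophagy carries cytoplasm and damaged organelles to the lysosome. The ULK kinase complex starts it, the PI3K complex makes the lipid signal on the growing membrane, ATG9A vesicles and ATG2A supply lipid, and ATG8 proteins are coupled to that membrane, where receptors such as TAX1BP1 attach cargo. The finished autophagosome fuses with the lysosome, whose hydrolases work in a lumen kept acid by a proton-pumping ATPase. TFEB, TFE3 and MITF are transcription factors known to bind an E-box motif found upstream of many lysosomal genes.

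In RT against Ctrl, most lysosomal genes were higher, while most autophagy genes stayed within 1.5-fold. Of the 12 members that encode lysosomal membrane or luminal proteins, 10 were at least 1.5-fold higher in RT and none was lower. Of the 24 autophagy members, 22 had enough counts, 2 of these were higher (ATG9A and PIK3R4) and 3 were lower (GABARAPL1, RB1CC1 and WIPI1). The median log2 ratio was 0.91 over the lysosomal members, with a range of 0.45 to 1.15, and -0.11 over the autophagy members, with a range of -0.96 to 0.93. Over all 12113 genes with a mean of at least 100 counts it was 0.07. Over all 41 members with enough counts, 13 were past 1.5-fold upward and 4 downward, where 16.3% of all such genes were higher and 8.16% lower. The median over these 41 was 0.08, close to that of all genes. The split into lysosomal and autophagy members was added after the data were seen. RNA from bulk culture cannot tell fewer cells of one kind from less RNA per cell.

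All ratios were taken after scaling by the trimmed mean of M-values (TMM), and a member is called higher or lower at a fold of 1.5, a log2 ratio of 0.585. Where 3 counts stand in a row, their order is Ctrl, RT and RT + shHDAC6. With 1 library per condition there is no replicate check and no test. The exact binomial intervals cover counting error alone, and for 14 of the 17 members called in RT against Ctrl the whole interval lay past the fold. The exceptions were CTSZ, WIPI1 and MITF. Scaling mattered, because TMM placed RT against Ctrl 0.22 higher on the log2 scale than library totals did. On library totals 8.44% of all genes were higher and 17.5% lower, with 10 members higher and 7 lower, and LAMP2 (0.56), CTSB (0.48) and CTSZ (0.43) were no longer called higher. MAP1LC3B, GABARAPL2 and TAX1BP1 were then called lower. The lysosomal median was 0.70 against an autophagy median of -0.33.

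The upstream sequence of some lysosomal members carries the E-box that TFEB, TFE3 and MITF are known to bind. Windows from 250 bases before to 50 bases after the start site, taken from RefSeq (GRCh38.p14), were found for 37 of the 44 members. The motif GTCACGTG, searched on both strands so that CACGTGAC also counts, occurred in 7 of the 37 windows (18.9%). It occurred in 690 of 27305 windows of all genes (2.53%), and in 20 of 99 windows of other genes of the same pathways (20.2%). Each match contains the shorter E-box CACGTG, and 2 matches on opposite strands overlap where the palindrome GTCACGTGAC stands. That palindrome was present in the MCOLN1 window only among members, 2.7% of them, against 0.381% of all windows.

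The stretches that carry matches are shown because they differ in how densely the motif is packed. LAMP1 had 6 matches in its window, of which 5 lie whole in the 200 bases before the start site. Capitals mark GTCACGTG or its reverse complement, and sequences read 5′ to 3′ on the strand of the gene. The LAMP1 stretch is chr13:113297039-113297238 on the plus strand, that of MCOLN1 is chr19:7522544-7522623 on the plus strand and that of ATG14 is chr14:55411831-55411910 on the minus strand.
LAMP1: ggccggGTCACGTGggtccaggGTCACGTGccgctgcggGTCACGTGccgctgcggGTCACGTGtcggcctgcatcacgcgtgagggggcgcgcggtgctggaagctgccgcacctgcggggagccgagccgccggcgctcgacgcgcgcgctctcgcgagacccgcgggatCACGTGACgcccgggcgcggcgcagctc
MCOLN1: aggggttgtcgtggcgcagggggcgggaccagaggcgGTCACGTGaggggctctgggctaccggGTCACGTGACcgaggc
ATG14: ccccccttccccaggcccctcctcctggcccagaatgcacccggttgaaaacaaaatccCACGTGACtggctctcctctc

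For the 4 other members the motif lies beside or inside an annotated exon, and only 30 bases around it are shown. ATG3 has 2 matches in its window, of which 1 is shown. They are chr20:45891290-45891319 on the plus strand for CTSA, chr11:1763956-1763985 on the minus strand for CTSD, chr16:67481200-67481229 on the minus strand for ATP6V0D1 and chr3:112561964-112561993 on the minus strand for ATG3.
CTSA: tGTCACGTGgcgccggagttCACGTGACtc
CTSD: ccggccgcgccCACGTGACcggtccgggtg
ATP6V0D1: gcccccttatgGTCACGTGaggcgcttgcg
ATG3: ccctttctcacGTCACGTGccgggagagtc

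The 7 members with the motif had a median log2 ratio of 0.92 in RT against Ctrl, and 4 of them (LAMP1, MCOLN1, CTSA and CTSD) were called higher. The 27 members with a window, enough counts and no match had a median of 0.08, with 7 higher and 3 lower. For comparison, 16.3% of all genes with enough counts were higher and 8.16% lower. Where only the products placed in a membrane or a lumen were taken, the medians were 0.96 for the 4 with the motif and 0.90 for the 8 without it. PPT1 and CTSL, whose windows hold no match, had log2 ratios of 1.15 and 1.09, while ATG3 and ATG14, whose windows do, were at -0.11 and -0.05. A match in these letters is a description of the window and not a measured binding site.

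Among lysosomal membrane proteins, 3 of 4 were called higher in RT. LAMP1, an abundant glycoprotein of the lysosomal membrane (chromosome 13, 113297239 to 113323672, GRCh38), had 9426 counts in Ctrl against 13195 in RT and 13484 with the hairpin. Its log2 ratio was 0.92 in RT against Ctrl (95% counting interval 0.88 to 0.96) and -0.03 in RT + shHDAC6 against RT, so both irradiated libraries lay above Ctrl and close to each other. The direction of the second ratio turned on library totals, where it was 0.05. LAMP2, the partner glycoprotein that also serves chaperone-mediated autophagy, had 8679, 10973 and 9843 counts in the same order, with log2 ratios of 0.77 and -0.22. The calcium channel gene MCOLN1 (chromosome 19, 7522624 to 7534009) had 963, 1522 and 1470 counts, with a log2 ratio of 1.10 (0.98 to 1.21) in RT against Ctrl and -0.11 with the hairpin. The tetraspanin gene CD63 did not reach the fold, with 7766, 8174 and 8474 counts and a log2 ratio of 0.51 (0.46 to 0.55). By length, CD63 was nevertheless the most abundant of these genes, at 501 to 626 TPM, a level corrected for transcript length and library size, and LAMP1 followed at 230 to 377 TPM.

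Of the 8 genes of the lysosomal lumen, 7 were called higher in RT, and each had its highest TMM-scaled level in the RT library, which for TPP1 did not hold on library totals. PPT1, which removes fatty acids from proteins, had 7670 counts in Ctrl against 12604 in RT and 10388 with the hairpin. Its log2 ratio of 1.15 (1.11 to 1.19) was the highest among the members. CTSL, a cysteine protease, had 3204, 5046 and 4213 counts and a log2 ratio of 1.09 (1.03 to 1.15). CTSA, a carboxypeptidase that also protects other lysosomal enzymes, had 12481, 17674 and 14185 counts and a log2 ratio of 0.94 (0.90 to 0.97). At 443 to 709 TPM it was the most abundant of the luminal genes in every library. The peptidase gene TPP1 had 5261, 7302 and 7289 counts with a log2 ratio of 0.91, and the exopeptidase gene CTSZ had 3346, 3864 and 3577 counts with one of 0.64. NPC2, which binds cholesterol in the lumen, stayed under the fold with 1759, 1773 and 1619 counts and a log2 ratio of 0.45 (0.35 to 0.54).

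The aspartic protease gene CTSD had 1656 counts in Ctrl against 2404 in RT and 2011 with the hairpin, with a log2 ratio of 0.97 (0.88 to 1.06) in RT against Ctrl. It shares 61.6% of its 31-base words with an overlapping gene model, whose own row held 10 counts or fewer, so reads of CTSD may have been left out of its count. ATG9A (48.2%), GABARAP (53.3%) and TPP1 (18.4%) likewise share words with overlapping models, and MAP1LC3B shares 21.8% with other genes, chiefly the separate gene MAP1LC3B2, so their levels are uncertain. Another gene on the opposite strand covers 31.7% of the exon bases of CTSZ, 28.1% of WIPI1, 23.4% of CTSD, 21.5% of CTSA and 20.8% of ATG14, and the strand setting of the counting is not given in the sources used here.

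CTSB was the 1 member past 1.5-fold between RT + shHDAC6 and RT. This cysteine protease gene (chromosome 8, 11842524 to 11869533) had 10266 counts in Ctrl against 12284 in RT and 7693 with the hairpin. It stood 1.62-fold higher in RT than in Ctrl (log2 ratio 0.69, 0.66 to 0.73), and RT + shHDAC6 was at 60.0% of RT (log2 ratio -0.74, -0.78 to -0.70). Against Ctrl, RT + shHDAC6 was at -0.04 (-0.09 to -0.0004), and this ratio was 0.01 with median-of-ratios scaling. The CTSB level in RT + shHDAC6 was thus 97.1% of Ctrl. On library totals the ratio of RT to Ctrl was 0.48, under the fold.

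**Figure D1:**
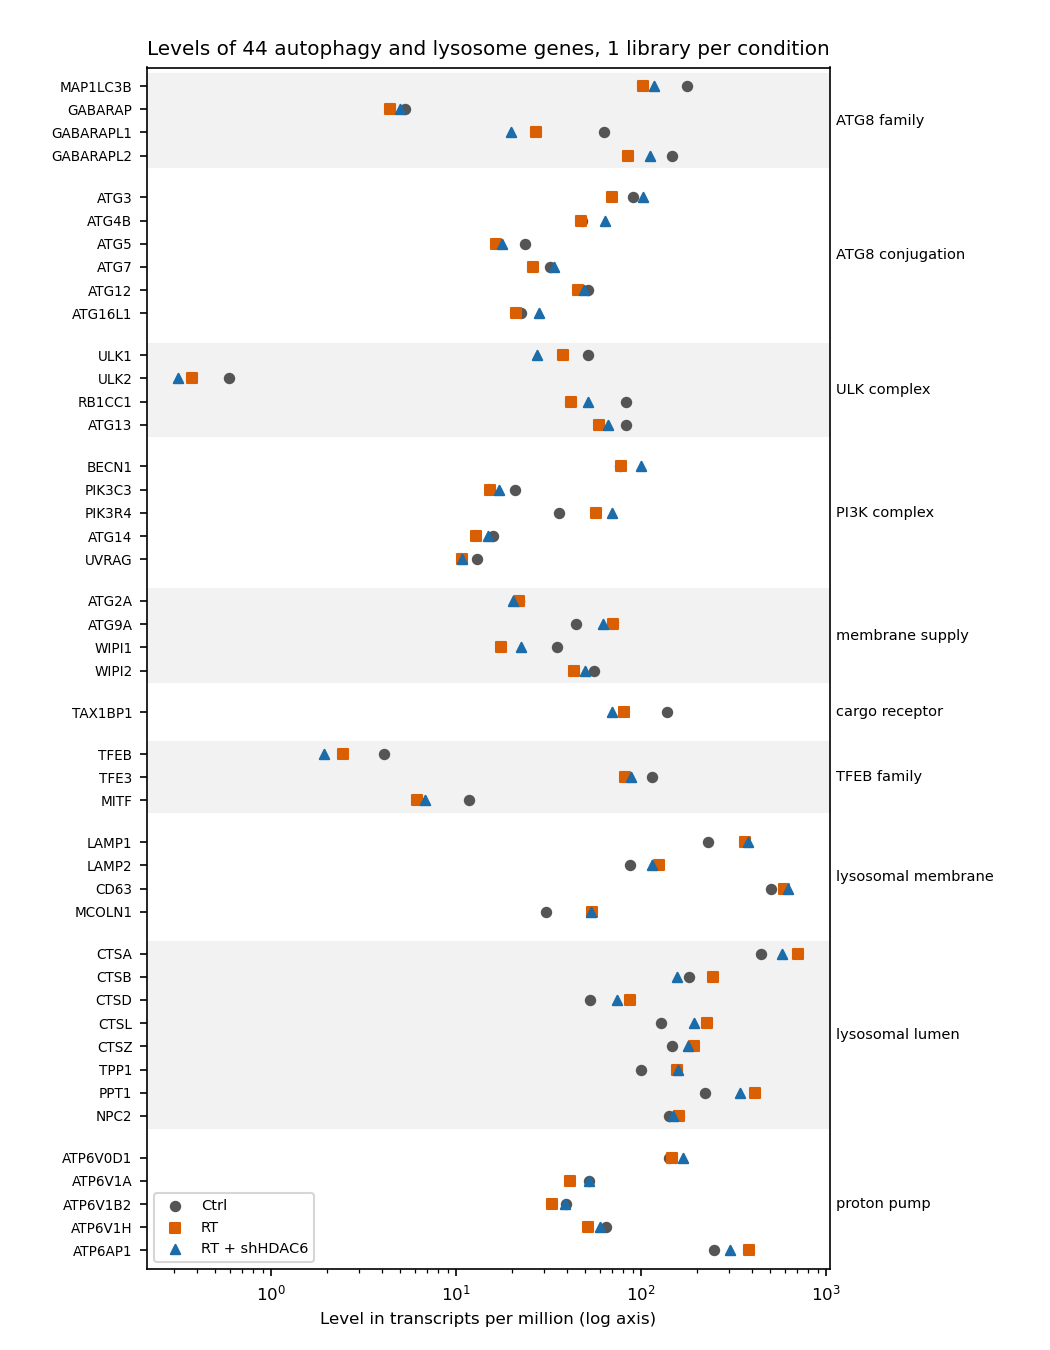
Levels of the 44 genes in TPM on a log axis, computed from the counts and transcript lengths, with 1 point per library. The Ctrl points lie left of both irradiated libraries for LAMP1, MCOLN1, TPP1 and PPT1, and right of them for MAP1LC3B, GABARAPL1 and TAX1BP1.

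The ATG8 family did not follow the lysosomal genes. MAP1LC3B, whose product LC3B coats autophagosomes, had 5797 counts in Ctrl against 2937 in RT and 3322 with the hairpin. Its log2 ratio in RT against Ctrl was -0.55 (-0.61 to -0.48), just inside the fold, and on library totals it was past it. GABARAPL1 was called lower, with 1801, 687 and 490 counts and a log2 ratio of -0.96 (-1.08 to -0.83). Both irradiated libraries lay below Ctrl, and RT + shHDAC6 was the lowest, at 35.2% of Ctrl. GABARAPL2 had 2172, 1105 and 1445 counts and log2 ratios of -0.54 in RT against Ctrl and 0.32 with the hairpin. GABARAP was counted at only 106, 78 and 87 reads and was not called.

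The 6 genes of the conjugation machinery were all within 1.5-fold in RT against Ctrl, with log2 ratios of -0.26 for ATG5 to 0.25 for ATG4B. ATG7 activates the ATG8 proteins, ATG3 transfers them to lipid, ATG4B trims them, and ATG5, ATG12 and ATG16L1 form the complex that directs the transfer. In RT + shHDAC6 against RT all 6 ratios lay above 0, with a median of 0.31, and none reached the fold. The highest of these was ATG3, with 2142 counts in Ctrl against 1471 in RT and 2137 with the hairpin and a log2 ratio of 0.48 (0.38 to 0.57). Against Ctrl, ATG4B was called higher in RT + shHDAC6, with 2025, 1780 and 2362 counts and a log2 ratio of 0.60 (0.51 to 0.68), but not on library totals (0.46) or with upper quartile factors (0.57). In RT against Ctrl the sign of ATG7, ATG12 and ATG16L1 depended on the scaling.

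In the ULK complex, RB1CC1, the scaffold also called FIP200, was called lower in RT. Ctrl held 8345 of its counts against 3716 in RT and 4539 with the hairpin, giving a log2 ratio of -0.73 (-0.79 to -0.68). ATG13 had a log2 ratio of -0.23. The kinase gene ULK1 had 4156, 2687 and 1939 counts, and its log2 ratios were -0.19 in RT against Ctrl, -0.53 in RT + shHDAC6 against RT and -0.73 in RT + shHDAC6 against Ctrl. Only the last of these was past the fold. The related kinase gene ULK2 had 82 counts or fewer.

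PIK3R4 stood apart from the rest of the PI3K complex. This gene of the regulatory subunit VPS15 (chromosome 3, 130678934 to 130746829) had 2749 counts in Ctrl against 3836 in RT and 4647 with the hairpin. Its log2 ratio was 0.92 (0.84 to 0.99) in RT against Ctrl and 1.13 (1.06 to 1.20) in RT + shHDAC6 against Ctrl, the highest of the members in that comparison. The catalytic subunit gene PIK3C3 had 2968, 1939 and 2135 counts and a log2 ratio of -0.18 in RT against Ctrl. For BECN1, the scaffold Beclin 1, the log2 ratios were 0.29 in RT against Ctrl and 0.56 in RT + shHDAC6 against Ctrl. ATG14 and UVRAG, which define the 2 forms of the complex, were at -0.05 and -0.01 in RT against Ctrl and changed sign between scalings.

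Among the genes that supply and mark the membrane, ATG9A and WIPI1 moved past the fold in opposite directions. ATG9A, the transmembrane lipid scramblase of autophagy, had 2530 counts in Ctrl against 3564 in RT and 3087 with the hairpin, with log2 ratios of 0.93 (0.86 to 1.0) in RT against Ctrl and -0.27 with the hairpin. WIPI1, which reads the lipid signal, had 1012, 447 and 568 counts and a log2 ratio of -0.74 (-0.91 to -0.58). The related gene WIPI2 was at -0.11 and the lipid transfer gene ATG2A at 0.26. TAX1BP1, which links ubiquitin-tagged cargo to ATG8 proteins, had 7168, 3732 and 3154 counts. Its log2 ratio was -0.51 in RT against Ctrl and -0.81 (-0.87 to -0.75) in RT + shHDAC6 against Ctrl, where it was called lower.

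None of the TFEB family was higher in an irradiated library. TFE3 was the most abundant by length, at 114 TPM in Ctrl against 81.6 in RT and 88.4 with the hairpin. Its 5679, 3605 and 3850 counts gave a log2 ratio of -0.22 (-0.28 to -0.16) in RT against Ctrl. MITF, with 850, 395 and 429 counts, was called lower in RT (log2 ratio -0.67, -0.85 to -0.50) and in RT + shHDAC6 against Ctrl (-0.61). TFEB itself had 144, 77 and 60 counts and was under the count minimum, with a log2 ratio of -0.47 (-0.89 to -0.06) in RT against Ctrl. These are mRNA levels, and the activity of these factors is known to be set largely by where the protein sits in the cell, which was not measured.

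The proton pump split by the position of the subunit in the complex. ATP6AP1, a membrane-spanning accessory protein of the pump, had 7734 counts in Ctrl against 10568 in RT and 8238 with the hairpin, and its log2 ratio was 0.89 (0.84 to 0.93) in RT against Ctrl and -0.42 with the hairpin. The 4 other pump members belong to the cytosolic sector or sit on the cytosolic face. ATP6V1A and ATP6V1B2, which form the ATP-hydrolysing head, were at -0.09 and -0.003, ATP6V1H at -0.07 and ATP6V0D1 at 0.31 in RT against Ctrl. With the hairpin these 4 lay between 0.12 and 0.26.

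The other pump genes were then added, in a grouping by position that was made after the values were seen. Of 9 subunits and accessory proteins embedded in the membrane, 8 had enough counts (ATP6V0C had 12 or fewer), 7 were called higher in RT against Ctrl and the median log2 ratio of the 8 was 0.87 (range 0.47 to 1.31). Other gene models on the same strand cover 76.3% of the exon bases of ATP6V0C, so its reads may have been left out of its count. Of 10 in the cytosolic sector or on its face, 9 had enough counts, none was called and the median was -0.04 (range -0.25 to 0.31). The shares of all genes were 16.3% higher and 8.16% lower, with a median of 0.07. On library totals 5 membrane subunits were called higher, without ATP6V0E1 and TCIRG1, where 8.44% of all genes were higher. The highest was ATP6V0B, a subunit of the proton-carrying ring, with 1940 counts in Ctrl against 3566 in RT and 3188 with the hairpin. The lowest was ATP6V1C1, with 4211, 2617 and 2642 counts. In RT + shHDAC6 against RT the medians were -0.28 for membrane subunits (range -0.56 to 0.03) and 0.14 for the others (range -0.05 to 0.58). None was called, where 2.7% of all genes were higher and 5.18% lower. In RT + shHDAC6 against Ctrl the medians were 0.57 (0.38 to 1.09) and 0.16 (-0.30 to 0.59). There, 4 membrane subunits and 1 cytosolic one, ATP6V1D, were called higher, beside 13.7% of all genes. The ranges of the groups overlapped in these 2 comparisons and not in RT against Ctrl.

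**Figure D2:**
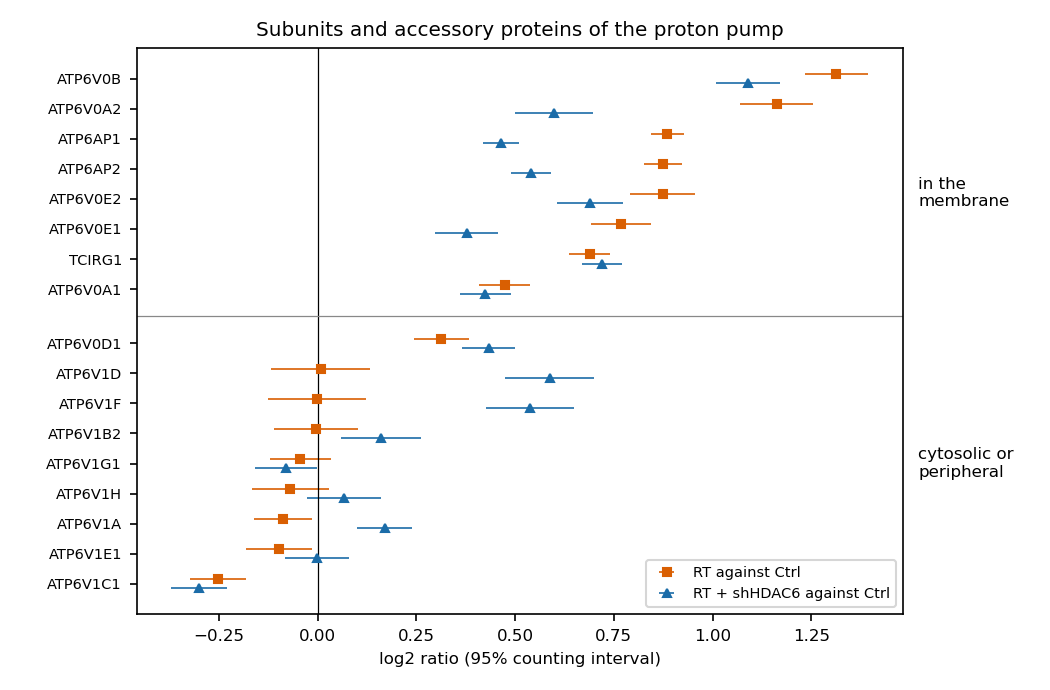
log2 ratios of the 17 proton pump genes with a mean of at least 100 counts, RT against Ctrl (squares) and RT + shHDAC6 against Ctrl (triangles), with 95% counting intervals of 1 library against 1 library. In RT against Ctrl the membrane subunits lie between 0.47 and 1.31 and the cytosolic or peripheral ones between -0.25 and 0.31.

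The same grouping was then applied to the members, again after the values were seen. Of 14 members whose products lie in a membrane or a lumen, 12 were called higher in RT against Ctrl and none lower, with a median of 0.91. They include ATP6AP1 and ATG9A, the transmembrane protein among the autophagy members. The other autophagy machinery was not grouped by position, and 21 of its 24 genes with enough counts stayed within the fold in RT against Ctrl. It also holds membrane proteins, and these did not follow ATG9A. VMP1 (0.06), TMEM41B (-0.01), EI24 (0.23), STX17 (-0.15) and VAMP8 (-0.27) were all within the fold. Of 30 cytosolic or peripheral members, 27 had enough counts, 1 was higher (PIK3R4) and 4 were lower, with a median of -0.11. Over all genes, 16.3% were higher and 8.16% lower, with a median of 0.07. By summed level, the 14 took 2550 TPM in Ctrl against 3780 in RT and 3370 with the hairpin, and the 30 took 1720, 1280 and 1490 TPM.

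**Figure D3:**
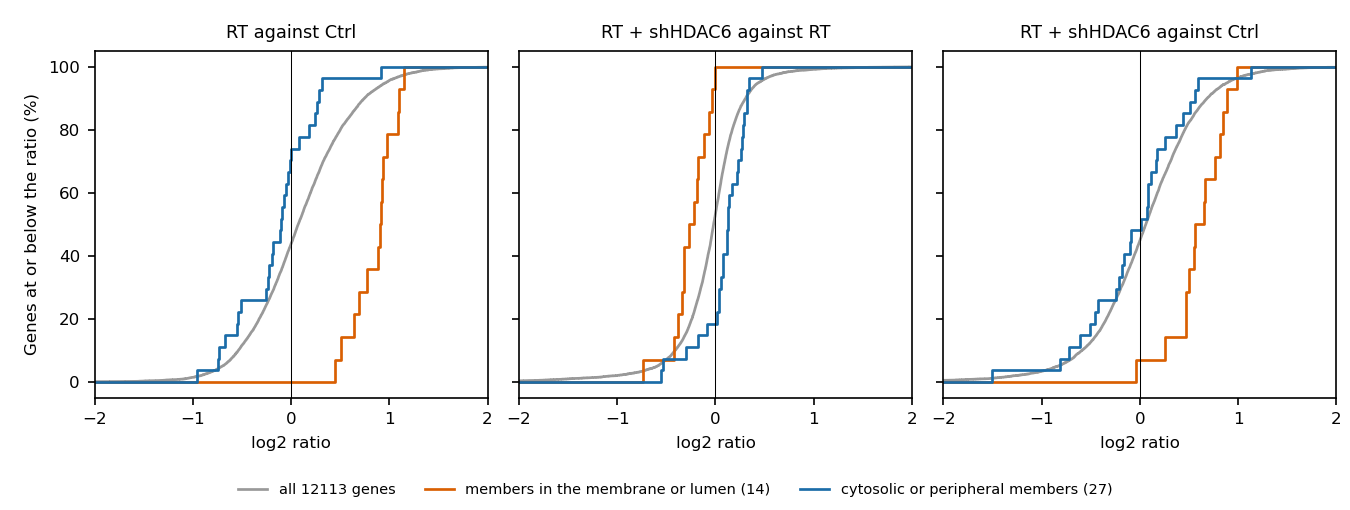
Percent of genes at or below each log2 ratio in the 3 comparisons, for all 12113 genes with enough counts, the 14 members in a membrane or lumen and the 27 cytosolic or peripheral members. The membrane and lumen members have a median of 0.91 in RT against Ctrl, -0.24 in RT + shHDAC6 against RT and 0.61 in RT + shHDAC6 against Ctrl.

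In RT + shHDAC6 against RT, 1 of the 41 members was called lower (CTSB) and none higher, where 5.18% of all genes were lower and 2.7% higher. The median over the 41 members was 0.03. The differences within the fold were not spread evenly. All 12 lysosomal membrane and lumen members lay below 0, with a median of -0.21 (range -0.74 to -0.01), against -0.02 over all genes. For CD63, LAMP1 and TPP1 this sign turned on library totals. The luminal genes had a median of -0.32 and the membrane genes one of -0.07. Of the 22 autophagy members, 16 lay above 0 and the median was 0.12. The lowest of them were GABARAPL1, at -0.55 (-0.72 to -0.38), and ULK1, at -0.53 (-0.62 to -0.45). This comparison and that of RT with Ctrl share the RT library, so the 2 sets of ratios are not independent.

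Against Ctrl, RT + shHDAC6 had 9 members higher and 4 lower, where 13.7% of all genes were higher and 10.2% lower. The median was 0.17 over the members with enough counts and 0.06 over all genes. On library totals the members had 6 higher and 6 lower, where 8.84% of all genes were higher and 14.6% lower, and with median-of-ratios factors 12 and 3. The calls of ATG4B, ATG9A and CTSD were lost on library totals and that of MITF with median-of-ratios factors. The 9 were LAMP1, MCOLN1, CTSD, CTSL, TPP1, PPT1, PIK3R4, ATG9A and ATG4B, and the 4 were GABARAPL1, ULK1, TAX1BP1 and MITF. The lysosomal membrane and lumen members had 6 higher of 12 and a median of 0.61. CTSA, LAMP2, CTSZ, CD63 and NPC2 were above Ctrl by less than the fold, with log2 ratios of 0.25 for NPC2 to 0.56 for CTSA, and CTSB was at the level of Ctrl.

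Other genes of the same pathways were taken from 6 lists of 134 genes. In RT against Ctrl, 21 of 33 other lysosomal hydrolases and activators with enough counts were called higher and none lower, with a median log2 ratio of 0.67, where 16.3% of all genes were higher and 8.16% lower. On library totals 16 were higher and 2 lower, where 8.44% of all genes were higher and 17.5% lower. SMPD1, the acid sphingomyelinase, had a log2 ratio of 1.31 (1.22 to 1.40), from 1597 counts in Ctrl against 2925 in RT and 2130 with the hairpin. SGSH, whose product degrades heparan sulfate, was at 1.23 and the arylsulfatase gene ARSB at 1.20. Of 19 other lysosomal membrane proteins, 11 were higher and none lower, with a median of 0.64, and 6 were higher on library totals. The cystine exporter gene CTNS had 1368, 2855 and 2134 counts and a log2 ratio of 1.5 (1.4 to 1.59). The calcium and sodium channel gene TPCN1 was at 1.23 and the chloride transporter gene CLCN7 at 1.19.

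Genes that sort enzymes to the lysosome had 5 of 17 called higher and none lower, with a median of 0.29, beside 16.3% and 8.16% of all genes. One of the 5, SORT1, was not called on library totals (0.39) or with upper quartile factors. These included both mannose 6-phosphate receptors, M6PR at 1.12 (1.08 to 1.15) and IGF2R at 0.86 (0.83 to 0.89), and NAGPA, which uncovers the mannose 6-phosphate tag, at 1.29 (1.16 to 1.41). Other autophagy machinery had 2 higher (EPG5 at 0.67 and ATG4D at 0.60) and 1 lower of 24, with a median of -0.07, fewer higher than the share of all genes. Neither higher call held on library totals (0.46 and 0.38). The lower gene, MAP1LC3B2, shares 58.2% of its 31-base words with other genes, chiefly MAP1LC3B. Its 292, 117 and 123 counts may include reads of MAP1LC3B, to an extent that is not known. The mTORC1 and nutrient-sensing genes had 2 higher (RPTOR at 0.65 and AKT1S1 at 0.61) and 1 lower (RRAGD at -0.75) of 22, with a median of -0.07. Neither higher call held on library totals (0.43 and 0.39), where 5 of the 22 were lower, beside 17.5% of all genes.

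With the hairpin, 10 of the 127 listed genes with enough counts were called lower than in RT and none higher, where 5.18% of all genes were lower and 2.7% higher. On library totals 6 of the 10 calls were lost, leaving 4 lower, and 2 pump genes, ATP6V1D and ATP6V1F, were called higher. With that scaling 4.2% of all genes were lower and 3.85% higher, so the listed genes were not called lower more often than all genes. The hydrolases held 5 of these, with a median over 33 genes of -0.42, and 31 of the 33 ratios lay below 0. ARSB had 1803 counts in Ctrl against 3063 in RT and 1752 with the hairpin, a log2 ratio of -0.87 (-0.95 to -0.78) between RT + shHDAC6 and RT. The protease gene CTSC was at -0.65 and PLBD2 at -0.64, and both were at -0.56 on library totals, inside the fold. The lysosomal membrane list held LAPTM4B, at -0.91 (-0.97 to -0.84), and SIDT2, at -0.72. From the sorting list came GNPTAB, which builds the mannose 6-phosphate tag, at -0.62 and the sorting receptor gene SORT1 at -0.59. On library totals they were at -0.54 and -0.51, and neither was called. VAMP8, a membrane fusion protein of the autophagosome and lysosome, was at -0.71. No mTORC1 gene was called in this comparison under any scaling tried.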

How the data were processed

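Trimming by the authors used cutadapt, alignment to GRCh38 used STAR (2.6.1a in the submitters' processing notes, another version in the study's methods), and the authors deposited raw counts per gene from featureCounts on GENCODE 28. The library kit differs between the labels and the study's methods. The strand setting and the handling of multi-mapping reads are not given in the sources used here. Of 58381 genes, 57754 matched GENCODE 44 by Ensembl ID, and TPM were computed from the counts and canonical transcript lengths. Counts were scaled by TMM over all 3 libraries (edgeR 4.0.16 in R 4.3.3). Ratios were given 95% exact binomial intervals, with zeros set to 0.5, and genes with a mean under 100 counts were not called. With 1 library per condition no test was run, and the noise simulation of the study's own tool was not used. The scripts were tested on simulated data. The columns used were all mapped to samples (0 per-sample columns were left out). Depth was 35424086 to 41811165 counts, where 3 counts correspond to 0.0718 to 0.0847 CPM.

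Named were HDAC6, all 44 members and, of 6 further lists, the 3 largest called genes per list, direction and comparison. ATP6V0C, ATP6V1C1 and the membrane or cytosol grouping were added after values were seen, as were ATP6V1D, ATP6V1F, VMP1, TMEM41B, EI24 and STX17. Genes of epithelial, urothelial and other cell types served as markers. The members and lists were chosen with earlier results of these data known. Alternatives were other scalings, count minimums, folds and zero replacements.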

Additional observations from a re-analysis of the deposited data

How the results depend on the processing

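No paired analysis was possible because each condition had 1 library and the labels carry no replicate numbers. Leaving out a library was not possible for the same reason. No member or listed gene called at the main setting changed sign under any alternative, but none could have, so this is no check. A call needs a log2 ratio of at least 0.585 in either direction. Another scaling shifts all ratios of a comparison together, by 0.22 at most from TMM. The other alternatives leave the ratios of called genes as they are. Values near 0 did change sign. The sign of the median over all members in RT against Ctrl turned on library totals and with lower count minimums, and that of the autophagy median in RT + shHDAC6 against Ctrl turned with median-of-ratios factors (0.0071). On library totals, members lower in RT against Ctrl numbered 7 and autophagy members lower 6, where 17.5% of all genes were lower. The medians over all members, lysosomal membrane and lumen members, and autophagy members were then -0.14, 0.70 and -0.33 in RT against Ctrl, 0.12, -0.12 and 0.20 in RT + shHDAC6 against RT, and 0.036, 0.47 and -0.18 in RT + shHDAC6 against Ctrl. This follows from the scaling factors, which differ by 0.22, -0.08 and 0.13 on the log2 scale from library totals. With median-of-ratios factors the lysosomal median in RT against Ctrl was 0.97, and with upper quartile factors 0.86, with 5 autophagy members lower. A minimum mean of 10 counts, or no minimum beyond 1 count, gave a median over all members of -0.0053 in RT against Ctrl, since GABARAP, ULK2 and TFEB then entered.

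At a looser fold (log2 ratio of 0.32), members lower in RT against Ctrl numbered 7 (6 of them autophagy members), RT + shHDAC6 against RT had 3 higher and 7 lower, and RT + shHDAC6 against Ctrl had 18 higher and 7 lower, with 10 lysosomal members higher. At that fold 20.2% of all genes were lower in RT against Ctrl, 9.07% higher and 14.2% lower in RT + shHDAC6 against RT, and 29.2% higher and 21.2% lower in RT + shHDAC6 against Ctrl. At a fold of 2, RT against Ctrl had 3 higher, all 3 lysosomal, and 0 lower, of which 0 were autophagy members. Of all genes, 4.35% were then higher and 1.49% lower. At a fold of 2, RT + shHDAC6 against RT had 0 lower, where 2.1% of all genes were lower. RT + shHDAC6 against Ctrl had 1 higher and 1 lower, with 0 lysosomal members higher, where 3.45% of all genes were higher and 3.46% lower. The counts of lysosomal members higher in RT against Ctrl ranged from 7 to 10 over the scalings. The intervals cover counting error only, and the spread between cultures is unknown. The lysosomal and autophagy sets, the shares of all genes and the scalings of the other lists were added as results after the data were seen.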
